A study of Mus musculus with 6 samples.

Results

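Serum-responsive target genes of the transcription factors SRF and YAP were followed in J1 ES cells converted from serum to 2i+vitC medium. The genes were taken by name from a list of 10 (Acta2, Tagln, Cnn1, Cnn2, Myl9, Tpm1, Tpm2, Cyr61, Ctgf and Ankrd1). 6 of them could be measured among 12626 genes, and Acta2, Cnn1, Myl9 and Ankrd1 were not analysed here. The 6 genes comprise 4 that encode actin-binding proteins (Tagln, Cnn2, Tpm1 and Tpm2) and 2 that encode secreted matricellular proteins (Cyr61 and Ctgf, also called Ccn1 and Ccn2).

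SRF binds the CArG box, an AT-rich element in the promoters of actin-cytoskeletal and immediate-early genes. It is driven either by MRTF cofactors (Mkl1 and Mkl2), which enter the nucleus when monomeric actin is depleted, or by ETS-family cofactors downstream of ERK. YAP and TAZ (Wwtr1) are coactivators without a DNA-binding domain of their own, which act through TEAD factors and are held in the cytoplasm when phosphorylated by the Hippo kinases. Lipids in serum activate both systems, and Cyr61, Ctgf and Ankrd1 are the usual readouts of YAP, while Tagln, Acta2 and the calponins are those of SRF with MRTF.

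The groups were D0, WT J1 cells in serum medium, and D6 and D13, the same line after 6 and 13 days in 2i+vitC, with 2 biological replicates each and 6 libraries in all. LIF, gelatin coating and the absence of feeder cells were common to both media, whereas the basal medium, the serum-free supplements, the GSK3 inhibitor CT-99021, the MEK inhibitor PD0325901, vitamin C and the passaging enzyme came in together, so that loss of serum and addition of the inhibitors or of vitamin C cannot be told apart. All values come from a single ES cell line. Bulk RNA was sequenced, in which fewer cells of a type and less RNA per cell cannot be told apart either. Reads on genes ranged from 73230745 to 83688345 per library. The libraries expressed the ES cell marker Pou5f1 (Oct4) at a log2 CPM of 9.46 to 10.18.

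The 2 libraries of D13 stood apart by gene length. The difference between replicate 1 and replicate 2 on D13 correlated with exon length at a Spearman coefficient of -0.55 across 11902 genes of the same libraries, against -0.19 on D0 and -0.15 on D6. Its median was 0.43 log2 units for the 20% of genes with the shortest exons and -0.44 for the 20% with the longest. Of the 6 target genes, 5 have 1.99 to 2.91 kb of exons and Tpm1 has 6.49 kb. Exons were joined over all isoforms, so these lengths can exceed those of single transcripts. All 6 were higher in replicate 1 than in replicate 2 on each day, by 0.22 to 1.39 log2 units on D0, 0.41 to 0.78 on D6 and 0.49 to 2.81 on D13. Over all genes, 45.4%, 46.9% and 50.6% were higher in replicate 1 on these days. The part of exon length in the values below was not tested, and the D13 changes of the 6 genes are given with and without each D13 library, whereas those of other genes and lists were not recomputed in this way.

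Promoter windows from 250 bases before to 50 bases after the start site were found for 4 of the 6 genes in RefSeq (GRCm38.p6). Of these, 3 are shown because they hold a match to at least 1 of the motifs searched. Capitals mark the matches on either strand to the CArG box, to a CArG box with 1 deviation, or to the TEAD core GGAATG, which reads CATTCC on the other strand. The windows lie at chr10:79988350-79988649 on the plus strand for Cnn2, and on the minus strand at chr9:67049164-67049463 for Tpm1 and chr3:145649936-145650235 for Cyr61.
Cnn2: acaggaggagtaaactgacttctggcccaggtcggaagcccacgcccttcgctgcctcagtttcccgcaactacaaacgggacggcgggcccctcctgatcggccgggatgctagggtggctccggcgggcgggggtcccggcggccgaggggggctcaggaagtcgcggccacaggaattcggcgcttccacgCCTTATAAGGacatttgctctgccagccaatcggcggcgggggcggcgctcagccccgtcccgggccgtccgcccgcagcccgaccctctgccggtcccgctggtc
Tpm1: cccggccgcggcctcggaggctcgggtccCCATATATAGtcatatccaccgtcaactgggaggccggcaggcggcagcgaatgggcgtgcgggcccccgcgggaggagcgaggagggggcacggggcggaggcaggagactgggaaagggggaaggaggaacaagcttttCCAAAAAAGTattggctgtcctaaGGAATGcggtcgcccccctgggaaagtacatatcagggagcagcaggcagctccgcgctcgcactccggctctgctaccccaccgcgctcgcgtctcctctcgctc
Cyr61: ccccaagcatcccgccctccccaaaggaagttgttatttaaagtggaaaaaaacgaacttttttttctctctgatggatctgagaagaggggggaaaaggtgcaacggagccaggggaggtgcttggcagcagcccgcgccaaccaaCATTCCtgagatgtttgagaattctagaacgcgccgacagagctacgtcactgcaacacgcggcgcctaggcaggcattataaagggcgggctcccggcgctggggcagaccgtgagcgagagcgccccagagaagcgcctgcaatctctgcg

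A strict CArG box was present in the Cnn2 window, 56 bases upstream of the start site, and in 1.63% of all 32851 windows. The Tpm1 window held 2 CArG boxes with 1 deviation, 221 and 80 bases upstream, an element found in 19.9% of all windows. It also held a TEAD core 56 bases upstream. The Cyr61 window held a TEAD core 103 bases upstream, and 14.7% of all windows hold such a core. No motif was matched in the Tpm2 window. These matches are descriptions of the letters in the windows, and binding was not measured.

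All 6 of the genes measured from the list of 10 were lower on D6 than on D0. Levels fell by between 2.26-fold for Cyr61 and 34.1-fold for Tagln. The replicates of both days did not overlap for any of the 6 genes, and the share of all genes without overlap was not counted. With 2 libraries a day, genes short of the test can be separate too, as Actb and Actg1 were between these days. Cyr61 rose again from D6 to D13, to values that overlapped those in serum, and the other 5 genes were lower on D13 than on D0. Differences were tested with limma on the log2 CPM of all genes and transposon families. A gene passed the test with a Benjamini-Hochberg adjusted p under 0.05, and log2 changes are given as later minus earlier day with the standard error (SE) of the fit.

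**Figure D1:**
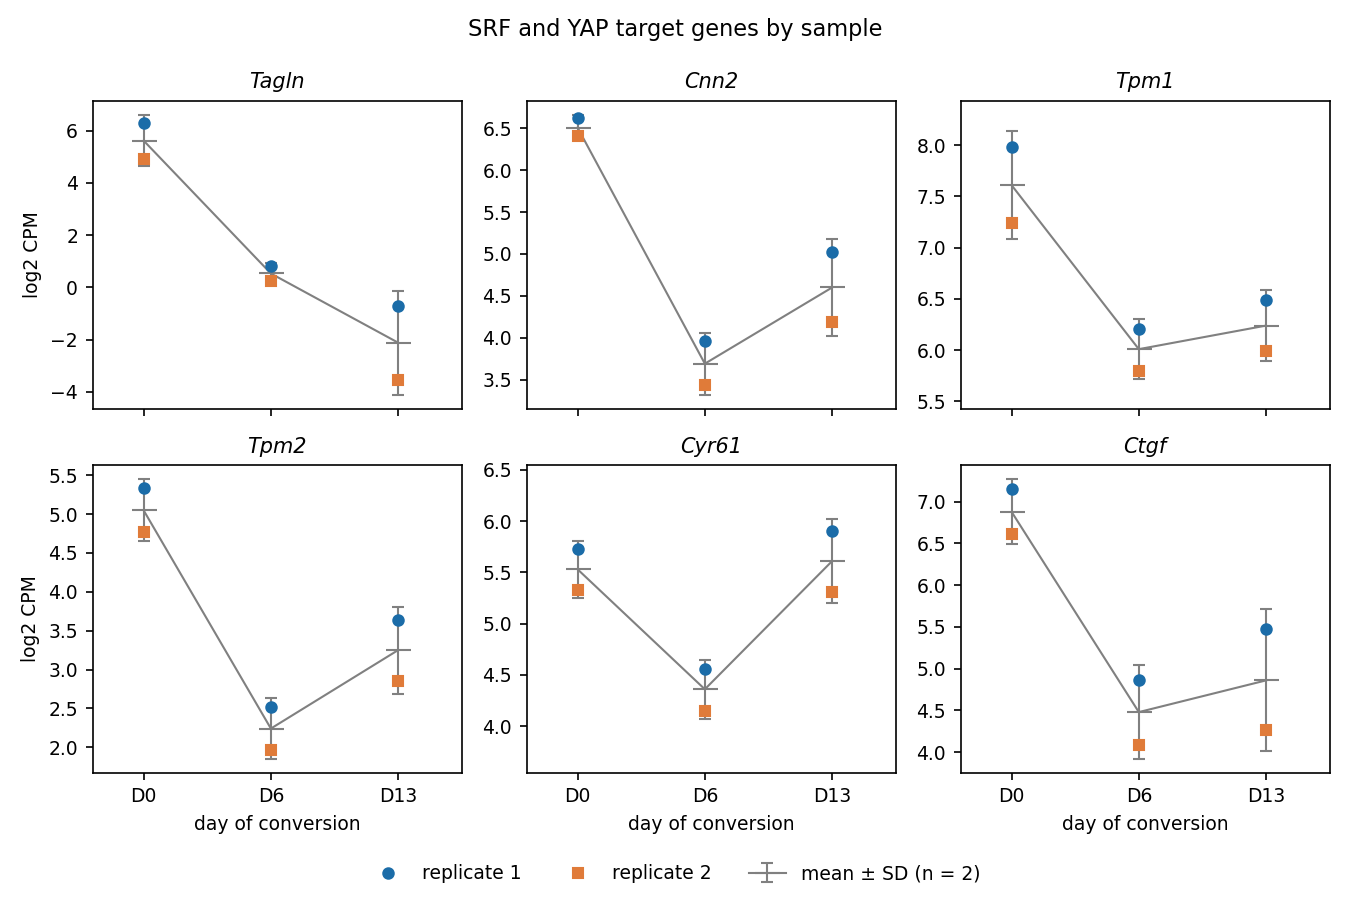
Log2 CPM (y axis, with a scale of its own in each panel) of the 6 genes in each library on D0, D6 and D13 (x axis). Circles are replicate 1, squares replicate 2, and bars the mean ± SD (n = 2). All genes drop from D0 to D6, Cyr61 goes from a mean of 4.36 to 5.61 on D13, and Tagln has a mean of -2.12 there.

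Tagln encodes transgelin (SM22), an actin-binding protein of smooth muscle and a classical SRF target, on chromosome 9 of GRCm38 from 45929619 to 45936058. It had 6267 and 2648 reads in the replicates of D0, 137 and 101 on D6, and 43 and 6 on D13. The D0 libraries were the highest, each D6 library lay below both of them, and each D13 library lay below those of D6. The log2 CPM was 5.62 ± 0.98 on D0, 0.53 ± 0.39 on D6 and -2.12 ± 1.99 on D13 (SD, n = 2). Tagln fell by 5.09 on the log2 scale from D0 to D6 (SE 0.84, adjusted p = 0.0026) and fell by 7.74 from D0 to D13 (SE 0.84, adjusted p = 0.00021). The step from D6 to D13, with a log2 change of -2.65 (SE 0.84, adjusted p = 0.10), did not pass. It was -1.25 without D13 replicate 2, the library with 6 reads, and -4.06 without D13 replicate 1. The D0 to D13 change was -6.34 and -9.15 in the same fits, and passed in both.

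Cnn2 encodes calponin 2, an actin-binding regulator of contractility also found outside muscle, on chromosome 10 from 79988584 to 79996062. Its reads were 7768 and 7404 on D0, 1223 and 915 on D6, and 2312 and 1369 on D13. Both D13 libraries lay between those of D6 and those of D0. The log2 CPM went from 6.51 ± 0.15 to 3.69 ± 0.37 and 4.60 ± 0.58 (SD, n = 2). Cnn2 fell by 2.82 to D6 (SE 0.32, adjusted p = 0.00039), which is 7.08-fold, and was lower by a log2 change of -1.91 on D13 than on D0 (SE 0.32, adjusted p = 0.002). The difference of 0.91 from D6 to D13 (SE 0.32, adjusted p = 0.13) did not pass. Without D13 replicate 1 it was 0.50 (adjusted p = 0.42), and without D13 replicate 2 it was 1.32 and passed (adjusted p = 0.045).

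Tropomyosins lie along actin filaments and control the access of myosin to them. Tpm2, on chromosome 4 from 43514711 to 43523765, had 3181 and 2379 reads on D0, 451 and 333 on D6, and 891 and 541 on D13. As for Cnn2, its D13 libraries lay between the other days. Tpm2 fell by 2.81 from D0 to D6 (SE 0.37, adjusted p = 0.00081), and the log2 change from D0 to D13 was -1.81 (SE 0.37, adjusted p = 0.0048). Between D6 and D13 it was 1.00 (SE 0.37, adjusted p = 0.14), with 0.61 without D13 replicate 1 (adjusted p = 0.46) and 1.40 without D13 replicate 2 (adjusted p = 0.065).

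Tpm1, on chromosome 9 from 67022590 to 67049406, had 19894 and 13152 reads on D0, 5846 and 4734 on D6, and 6407 and 4784 on D13. Its D6 and D13 libraries overlapped. Tpm1 fell by 1.60 from D0 to D6 (SE 0.30, adjusted p = 0.0055), which is 3.04-fold, and the log2 change from D0 to D13 was -1.37 (SE 0.30, adjusted p = 0.0074). Between D6 and D13 it was 0.23, with a 95% interval from -0.46 to 0.93, and it was -0.01 without D13 replicate 1 and 0.48 without D13 replicate 2. Tpm1 and Tpm2 are paralogs with several isoforms, and reads of the isoforms were summed for each gene.

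Cyr61 encodes a matrix-associated integrin ligand of the CCN family, on chromosome 3 from 145646976 to 145649981. It had 4179 and 3521 reads on D0, 1864 and 1510 on D6, and 4269 and 2984 on D13. The D6 libraries were below all others, and those of D0 and D13 overlapped. The log2 CPM was 5.53 ± 0.28, 4.36 ± 0.29 and 5.61 ± 0.41 (SD, n = 2). Cyr61 fell by 1.17 from D0 to D6 (SE 0.29, adjusted p = 0.018). This call was lost without D0 replicate 1, with -0.98 (adjusted p = 0.094), and without D6 replicate 2, with -0.97 (adjusted p = 0.15). From D6 to D13 Cyr61 rose by 1.25 (SE 0.29, adjusted p = 0.049), close to the threshold, which was missed on leaving out any library other than D13 replicate 2, with adjusted p from 0.05 to 0.39 and log2 changes from 0.96 to 1.46. Between D0 and D13 the log2 change was 0.08, with a 95% interval from -0.58 to 0.73.

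Ctgf encodes the related CCN protein connective tissue growth factor, on chromosome 10 from 24595442 to 24598683. Its reads were 11202 and 8496 on D0, 2307 and 1445 on D6, and 3159 and 1439 on D13. The D13 libraries lay on both sides of D6 replicate 1 in CPM, and all libraries in 2i+vitC were below both in serum. Ctgf fell by 2.40 from D0 to D6 (SE 0.42, adjusted p = 0.0037), and fell by 2.01 from D0 to D13 (SE 0.42, adjusted p = 0.0055). Its log2 change between the later days was 0.38, with a 95% interval from -0.58 to 1.35, and it was -0.22 without D13 replicate 1 and 0.99 without D13 replicate 2. The change from D6 to D13 was thus past the test for Cyr61 and not for Ctgf, and the difference between the 2 genes was not tested.

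**Figure D2:**
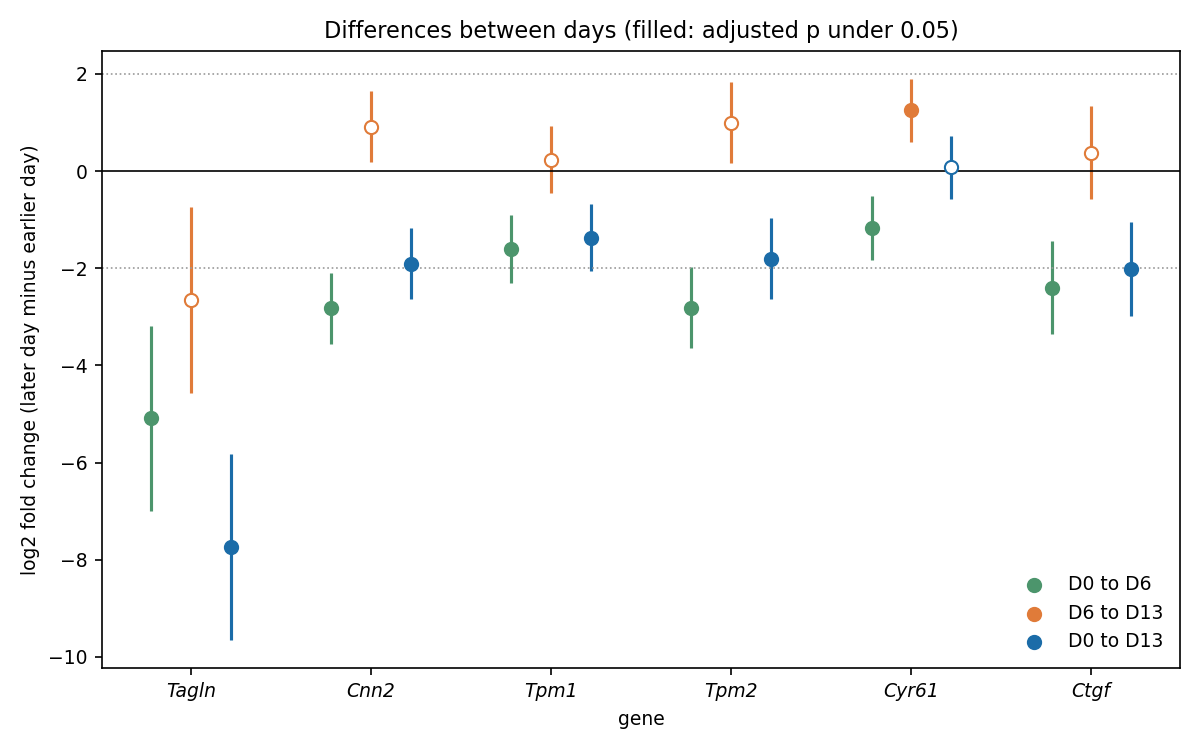
Log2 fold change (y axis, later minus earlier day) of each gene (x axis) in the 3 comparisons, with lines for the 95% interval of the limma fit and filled points for an adjusted p under 0.05. Dotted lines mark a 4-fold difference. All 6 points for D0 to D6 are filled and below 0, and Cyr61 has the only filled point for D6 to D13 and the only open point for D0 to D13.

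From D0 to D6, 6 of 6 genes were lower past the test, where 10.2% of all 12928 genes and families were lower and 13.7% higher past it. With the 4-fold minimum that the study sets for genes, 4 of 6 were called lower (Tagln, Cnn2, Tpm2 and Ctgf), against 3.81% of all rows. From D0 to D13, 5 of 6 genes were lower past the test, against 21.5% of all rows lower and 20.6% higher. Without D13 replicate 1 or replicate 2, in this order, the log2 change against serum was -2.33 and -1.50 for Cnn2, -2.20 and -1.41 for Tpm2, -1.61 and -1.12 for Tpm1 and -2.62 and -1.41 for Ctgf, past the test in each case, and -0.22 and 0.37 for Cyr61, short of it in both. Over 4-fold, 2 of 6 were lower (Tagln and Ctgf), against 5.9%. Ctgf, at 4.04-fold, lay on the edge of this minimum. Without D13 replicate 1, or without D0 replicate 2, 4 genes were over 4-fold on D13, and without D13 replicate 2, or without D0 replicate 1, 1 gene was. From D6 to D13, 1 of 6 genes was higher past the test and 0 lower, against 1.39% and 2.78% of all rows. D0 libraries enter both comparisons with serum, so those counts share their controls. The median log2 change of the 6 genes was -2.60 for D6 against D0, 0.65 for D13 against D6 and -1.86 for D13 against D0, and that of all rows was -0.01, -0.02 and -0.02.

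Levels per kb of exon ordered the genes differently in each medium. On D0, CPM per kb was 41.9 ± 11.1 for Ctgf, 37.3 ± 3.95 for Cnn2, 31.1 ± 11.1 for Tpm1, 27.6 ± 17.5 for Tagln, 23.1 ± 4.44 for Cyr61 and 11.6 ± 3.19 for Tpm2 (SD, n = 2). Neighbours among the first 5 differed by less than their spread, and Tpm2 lay below them. On D13, Cyr61 was first with 24.6 ± 6.99 CPM per kb, followed by Tpm1 with 11.8 ± 2.82, Ctgf with 11.1 ± 6.18 and Cnn2 with 10.3 ± 4.05, which overlapped each other. Tpm2 with 3.38 ± 1.28 and Tagln with 0.171 ± 0.186 came last (SD, n = 2). Exons were joined over all isoforms of each gene.

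Srf itself was lower on both days in 2i+vitC and its cofactor Mkl1 on D13. Srf had 5721 and 5494 reads on D0, 2442 and 2783 on D6, and 2338 and 1772 on D13. Both serum libraries were above all the others, and Srf fell by 1.09 to D6 (SE 0.24, adjusted p = 0.012) and fell by 1.28 to D13 (SE 0.24, adjusted p = 0.0033). Mkl1 (MRTF-A) had a log2 change of -0.53 from D0 to D6 (adjusted p = 0.22), short of the test, and fell by 1.70 to D13 (SE 0.29, adjusted p = 0.002). For Mkl2 (MRTF-B), the values were 0.05 and -0.68 (adjusted p = 0.94 and 0.12). Of 7 measured genes among SRF and its cofactors, 1 was lower past the test on D6 and 2 on D13, and 0 were higher. The counts of lower genes lie near the shares over all rows, 10.2% on D6 and 21.5% on D13. Higher were 13.7% and 20.6% of all rows.

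Yap1 had 19048 and 17371 reads on D0, 15759 and 18630 on D6, and 12356 and 15819 on D13, and its libraries overlapped in CPM between all days. Its log2 change was -0.07 from D0 to D6, with a 95% interval from -0.56 to 0.43, and -0.20 from D0 to D13, with an interval from -0.70 to 0.30. Wwtr1, which encodes TAZ, was higher in all 4 libraries of 2i+vitC than in serum, with 2413 and 2888 reads on D0, 6706 and 7005 on D6, and 5871 and 8110 on D13. It rose by 1.39 to D6 (SE 0.22, adjusted p = 0.0021) and by 1.57 to D13 (SE 0.22, adjusted p = 0.00079).

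Among the TEAD factors, Tead4 rose by 2.18 from D0 to D6 (SE 0.36, adjusted p = 0.0025) and Tead3 fell by 1.24 (SE 0.33, adjusted p = 0.024). Tead1 and Tead2 had log2 changes of 0.27 and 0.56 (adjusted p = 0.56 and 0.14). On D13 relative to D0, Tead4 was higher by 1.49 (adjusted p = 0.01) and Tead2 by 0.80 (adjusted p = 0.03), while the values of Tead1 and Tead3 were -0.40 and -0.39 (adjusted p = 0.29 and 0.36). Over the 20 genes of the list of YAP, TAZ, TEAD factors and Hippo kinases, 3 were higher and 2 lower past the test on D6, where 13.7% of all rows were higher and 10.2% lower. On D13, 5 were higher and 6 lower, where 20.6% of all rows were higher and 21.5% lower. The counts of both days lie near the shares over all rows. Among those past the test, the largest differences from D0 to D13 were those of Amot, a scaffold that retains YAP at junctions, with -5.25 (SE 0.59, adjusted p = 0.00026), of Wwtr1, and of the Hippo kinase gene Stk4, with -1.55 (SE 0.26, adjusted p = 0.002).

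**Figure D3:**
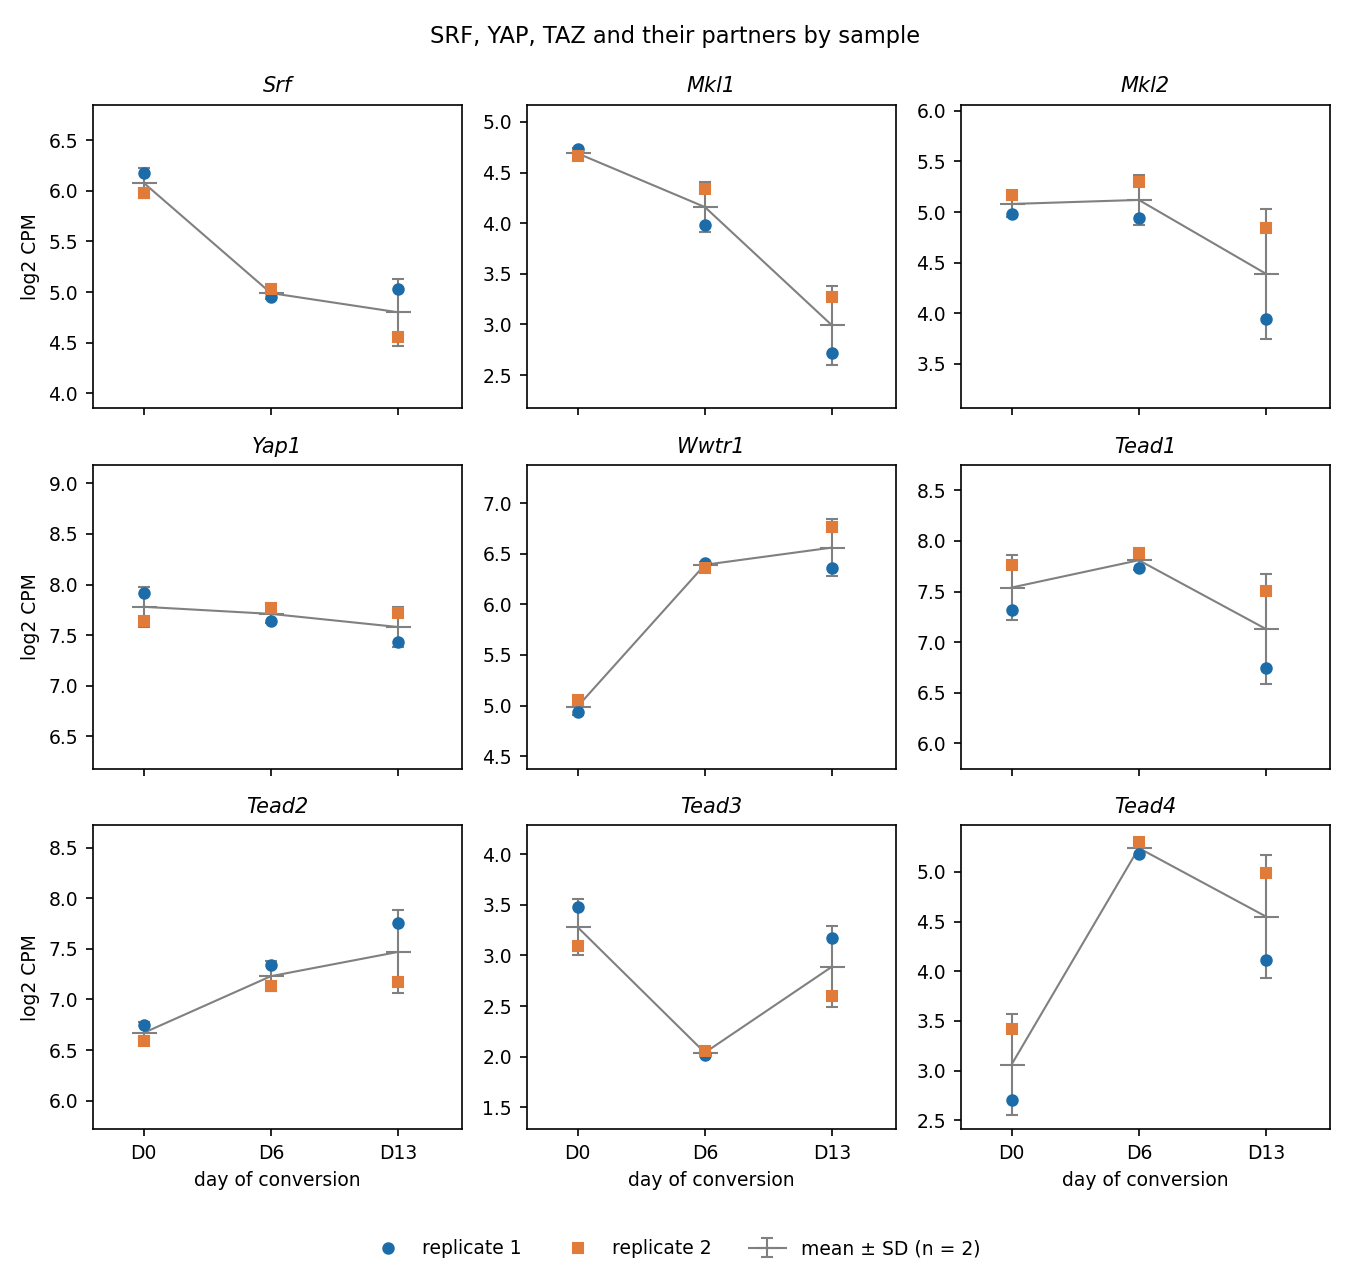
Log2 CPM (y axis, with a scale of its own in each panel) of Srf, its cofactors Mkl1 and Mkl2, Yap1, Wwtr1 (TAZ) and the 4 TEAD genes in each library on D0, D6 and D13 (x axis), with the mean ± SD (n = 2). Srf is lower and Wwtr1 higher in all libraries of 2i+vitC than in serum, and the Yap1 libraries overlap between days.

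Other actin-cytoskeletal SRF targets were counted in the same way. Of 27 measured genes, 5 were lower and 1 higher past the test on D6, and 8 were lower and 4 higher on D13, with median log2 changes of -0.14 and -0.13. Over all rows, 10.2% were lower and 13.7% higher on D6, and 21.5% lower and 20.6% higher on D13, and the D13 counts of the list lie near these shares. Those past the test with the largest changes from D0 to D13 were Pdlim7, a PDZ and LIM adaptor of actin filaments, with -2.51 (SE 0.29, adjusted p = 0.00029), Fhl1, with -2.40 (SE 0.26, adjusted p = 0.00021), and the focal adhesion gene Zyx, with -2.19 (SE 0.38, adjusted p = 0.0023). Zyx had the same order of days as Cnn2 and Tpm2, with 4296 and 2506 reads on D0, 411 and 308 on D6, and 754 and 537 on D13. The 4 genes higher on D13 were Tuft1 (2.08, adjusted p = 0.00059), Tagln2 (1.23, adjusted p = 0.0068), Cnn3 (1.20, adjusted p = 0.0025) and Myl12b (0.80, adjusted p = 0.037). Tagln2 and Cnn3 thus went the other way from Tagln and Cnn2. Tpm3 and Tpm4 had 0.13 and 0.01 (adjusted p = 0.77 and 0.97). The cytoplasmic actin genes did not pass in either comparison with serum. Actb had log2 changes of -0.45 and -0.45 on D6 and D13 (adjusted p = 0.36 and 0.29), and Actg1 of -0.70 and -0.86 (adjusted p = 0.16 and 0.062).

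Of 12 measured serum immediate-early SRF targets, 8 were lower and 0 higher past the test on D6, with a median log2 change of -1.24, and 8 were lower and 1 higher on D13, with a median of -1.46. The shares of all rows were 10.2% lower and 13.7% higher on D6, and 21.5% lower and 20.6% higher on D13. Egr1, a zinc finger factor induced through ERK, had 5956 and 11827 reads on D0, 84 and 36 on D6, and 52 and 33 on D13, and fell by 7.47 from D0 to D13 (SE 0.53, adjusted p = 2.9e-05). Dusp5, a phosphatase of ERK, fell by 3.23 (SE 0.39, adjusted p = 0.00035) and Klf6 fell by 2.18 (SE 0.31, adjusted p = 0.0008). Between the later days, 3 genes of this list were higher past the test and 0 lower, against 1.39% and 2.78% of all rows. These were Fos, Ier5 and Jun, with 2.61, 1.94 and 1.69 (adjusted p = 0.022, 0.029 and 0.029). From D0 to D13 their log2 changes were 0.62, 1.17 and -1.24 (adjusted p = 0.25, 0.029 and 0.013).

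Of 16 measured genes of a YAP signature besides Cyr61 and Ctgf, 6 were lower and 2 higher past the test on D6, and 8 were lower and 1 higher on D13, with medians of -0.72 and -0.85. All rows held 10.2% lower and 13.7% higher on D6, and 21.5% lower and 20.6% higher on D13. The largest changes past the test from D0 to D13 were those of Nt5e, an ecto-nucleotidase, with -4.35 (SE 0.60, adjusted p = 0.0007), Igfbp3, a secreted binder of insulin-like growth factors, with -4.05 (SE 0.39, adjusted p = 0.00012), and Fjx1, with -3.78 (SE 0.46, adjusted p = 0.00038). Nt5e had 14 and 7 reads on D13. Of its fall, -3.51 lay between D6 and D13 (adjusted p = 0.024), whereas Igfbp3 had already changed by -3.26 on D6 (adjusted p = 0.0005). Amotl2 and Lats2 are counted in this list and in that of the Hippo pathway.

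**Figure D4:**
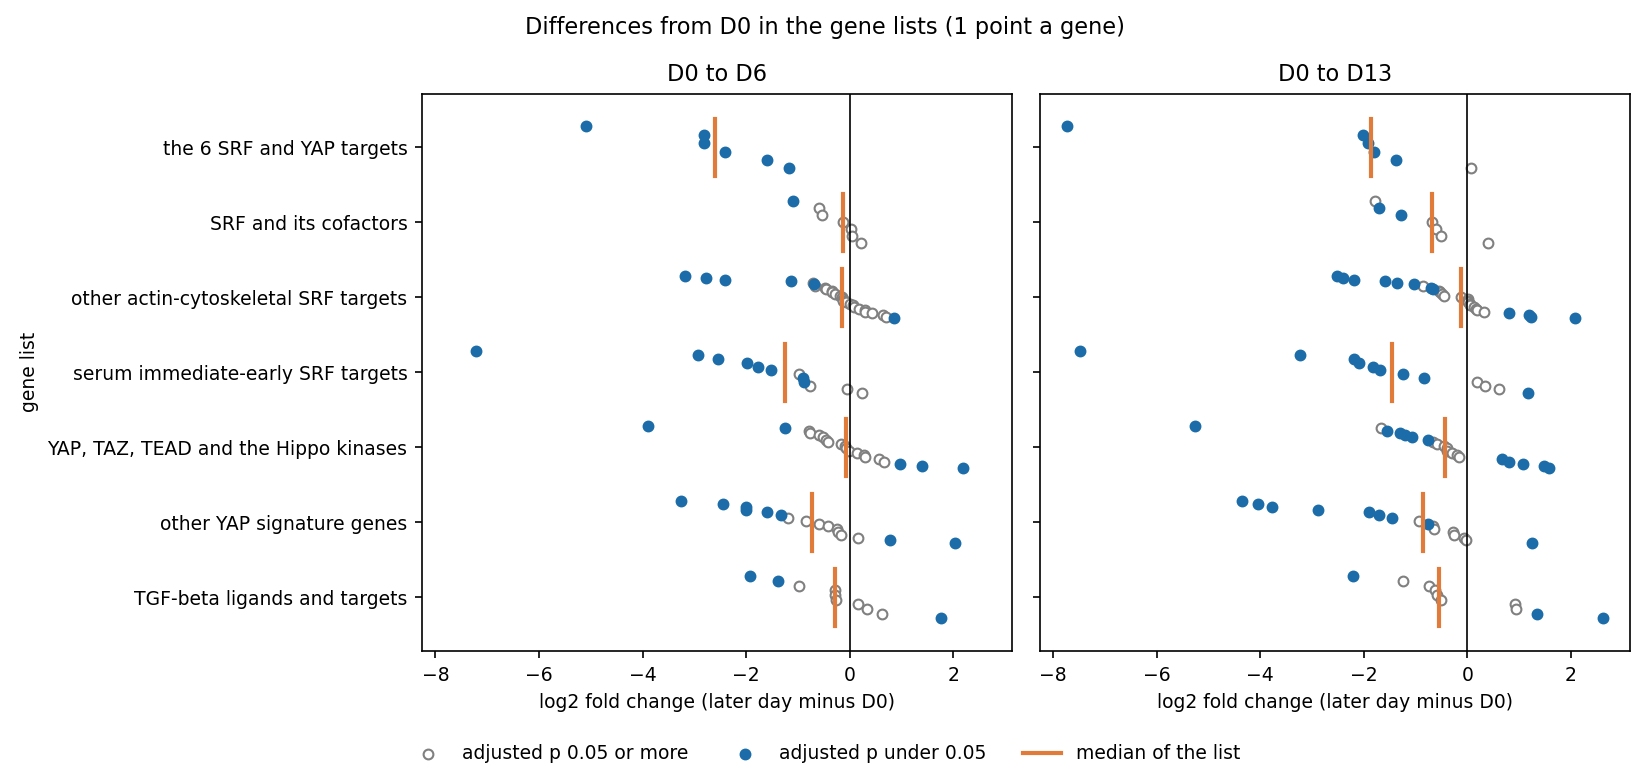
Log2 fold change from D0 to D6 (left) and from D0 to D13 (right) on the x axes for each measured gene (1 point each) of the lists on the y axis, filled where the adjusted p was under 0.05, with a vertical bar at the median of the list. The 6 SRF and YAP targets have medians of -2.60 and -1.86, and the medians of the other actin-cytoskeletal targets are -0.14 and -0.13.

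Among 10 measured TGF-beta ligands and targets, 1 was higher and 2 lower past the test on D6, and 2 were higher and 1 lower past it on D13. These counts lie near the shares over all rows, which were 13.7% higher and 10.2% lower on D6, and 20.6% and 21.5% on D13. Tgfbi, a secreted matrix protein, rose by 2.62 from D0 to D13 (SE 0.45, adjusted p = 0.0021), Ltbp1 fell by 2.21 (SE 0.31, adjusted p = 0.00075), and Smad3 rose by 1.34 (SE 0.27, adjusted p = 0.0051).

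Markers of other cell types that serum cultures could hold were read beside these values. Of 8 smooth muscle markers 3 were measured (Des, Smtn and Synm), with summed levels of 66.8 to 88.7 CPM on D0, 32.3 to 34.5 on D6 and 35.3 to 42.9 on D13. Past the test, 2 of these 3 were lower on D6 and 1 on D13, where 10.2% and 21.5% of all rows were. Smtn, which encodes the actin-binding smoothelin, fell by 1.39 from D0 to D13 (adjusted p = 0.0029). Des and Synm did not pass, with 0.25 and -1.18 (adjusted p = 0.55 and 0.069). From D6 to D13, Des rose by 1.49 (adjusted p = 0.039). Of 14 fibroblast markers 7 were measured, with sums of 44.6 to 144 CPM on D0, 247 to 359 on D6 and 178.3 to 178.4 on D13, of which Vim made up most. Vim rose by 1.61 from D0 to D13 (adjusted p = 0.04), while the collagen genes Col1a1 and Col1a2 had log2 changes of -1.98 and -3.86 (adjusted p = 0.037 and 0.0042). Between the serum libraries, where Tagln had 6267 and 2648 reads in replicates 1 and 2, Col1a1 had 18.5 and 3.64 CPM, Vim 107.2 and 26.6, and Thy1 6.50 and 3.40. Smtn, with 43.1 and 62.2 CPM, Des, with 8.22 and 11.7, and Pdgfra, with 1.27 and 2.43, went the other way, and the other markers of both lists were higher in replicate 1. Of 10 endoderm markers 6 were measured, with sums of 482 to 528 CPM on D0, 438.3 to 438.5 on D6 and 453 to 549 on D13. On D13, 2 of them were lower past the test, where 21.5% of all rows were. These were Dab2 with a log2 change of -4.66 (adjusted p = 7e-05) and Lamb1 with one of -3.26 (adjusted p = 4.4e-05). The others did not pass, with 0.70 for Sparc, 0.59 for Lama1, 0.30 for Sox17 and -0.51 for Amn. By its means, Sparc was the largest part of the sums, with 232 CPM on D0 and 371 on D13, while Lamb1 had 179 and 18.9. In D0 replicate 2, however, Lamb1 had 194.5 CPM and Sparc 173.4. The 4 measured mesoderm and epiblast exit markers summed to 10.3 to 12.1 CPM on D0, 8.25 to 11.1 on D6 and 8.11 to 8.57 on D13. The part of such cells in the levels of the target genes was not tested.

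Of the 8 ES cell markers, 4 were higher and 0 lower past the test on D6, and 4 were higher and 1 lower past it on D13. Among all rows, 13.7% were higher and 10.2% lower on D6, and 20.6% higher and 21.5% lower on D13. Tbx3 rose by 3.26 from D0 to D13 (adjusted p = 4.8e-05), Fbxo15 by 1.53 (adjusted p = 0.0046) and Nanog by 1.37 (adjusted p = 0.0014). Klf4 rose by 1.29 (adjusted p = 0.0049), and the 1 lower was Sox2, with -0.69 (adjusted p = 0.031). Esrrb, Pou5f1 and Zfp42 did not pass, with 1.02, 0.04 and -0.75 (adjusted p = 0.077, 0.92 and 0.072).

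Genes with the most similar course were looked up among 11774 genes with at least 10 reads in each library, by the Euclidean distance between profiles of log2 CPM centred on their own mean over the 6 libraries. The nearest to Tagln were Nnat at a distance of 2.11, the Myc proto-oncogene at 2.29 and Dnmt3l, a cofactor of de novo DNA methylation, at 2.66. Myc had a log2 CPM of 6.55 and 5.45 in the replicates of D0, 0.66 and 1.78 on D6, and -0.86 and -1.12 on D13. The nearest to Cyr61 were H2-DMa, Tmem141 and Ltbr, each at a distance of 0.39 log2 units. Ltbr, the lymphotoxin beta receptor gene, had 2.38 and 2.23 on D0, 1.29 and 1.31 on D6, and 2.72 and 2.19 on D13. Distances to Cyr61 were shorter than those to Tagln, whose profile covers a wider range. Tagln itself, with 6 reads in D13 replicate 2, falls short of the 10 reads, so genes with as few reads there were not searched.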

How the data were processed

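RNA-seq of J1 ES cells was analysed at D0, D6 and D13, with 2 replicates each. Per the submitters' processing notes and methods, mm10 alignments came from TopHat2 2.0.6 with RefSeq models, gene counts from HTSeq 0.6.1 and transposon counts from Bowtie 1.0.0. The authors applied TMM scaling and deposited log2 CPM from voom, in which 0.5 reads are added to each count. The strand setting of the counting is not given in the sources used here. Libraries were stranded.

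Each gene value was a whole number of reads (within 0.01 reads, for 100% of values), which gave reads and depth. 3 reads were 0.0344 to 0.042 CPM. Because log2 values and no voom weights were given, limma 3.58.1 (R 4.3.3) was run with a mean per day and a mean-variance trend on 12928 genes and families, and was tested on simulated data. P-values were adjusted by Benjamini-Hochberg. An SD rests on 2 values.

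The genes and lists were chosen with earlier results of these data known. The genes named are the list of 10, Srf, Mkl1, Mkl2, Yap1, Wwtr1, the TEAD genes, Actb, Actg1, the 3 genes past the test in each list with the largest change from D0 to D13 and at least 10 reads in each library of the higher day, and the 3 nearest profiles of Tagln and Cyr61 among genes with a RefSeq symbol, a condition added to the rule. GENCODE vM21 gave exon lengths and gene positions (GRCm38, which is mm10), and RefSeq the promoters. Named besides this rule are the actin-cytoskeletal targets higher on D13, Tpm3, Tpm4, Myof, Dock5, F3, Fos, Jun, Ier5 and further cell type markers. No gene name in the files holds a capital G, so genes written with one could not be looked up. Tables were made with Python 3.11.15. The result of 1 of the gene lists is not reported here. The alternatives tried are given with the results that depend on the processing.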

Additional observations from a re-analysis of the deposited data

How the results depend on the processing

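The 6 genes past the test from D0 to D6 were 5 to 6 under all alternatives, and the 5 from D0 to D13 were 5 under all. The 1 gene from D6 to D13 (Cyr61) was 0 in fits of only the days compared, without a trend, with voom precision weights and at an adjusted p under 0.01, and 0 to 2 on leaving out each library. With the replicate number as a block it was 3, with Cnn2 (adjusted p = 0.044), Cyr61 and Tagln (adjusted p = 0.0098). The numbers were not taken to pair the samples, because deviations of replicate 1 from the day mean correlated across 12626 genes by -0.13 for D0 and D6, 0.137 for D0 and D13 and 0.329 for D6 and D13. The replicate block changed no other count of calls.

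Of 252 refitted log2 fold changes, 234 kept their direction and side of the threshold, 10 lost it (all for Cyr61), 3 gained it and 5 reversed, all 5 among changes that had not passed. The step from D6 to D13 was -0.01 for Tpm1 without D13 replicate 1, in a range up to 0.48 over the libraries left out. For Ctgf it was -0.01 without D6 replicate 2 and -0.22 without D13 replicate 1, in a range up to 0.99. Cyr61 between D0 and D13 was -0.12 without D0 replicate 2 and -0.22 without D13 replicate 1, in a range up to 0.37. The D0 to D13 change of Tagln was -5.26 on log2(CPM + 1), from 43 and 6 reads at D13.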
